A study of Mus musculus with 4 samples.

Results

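Described here are the mouse genes of the chromatin remodeller families and of the bromodomain readers named with them: the protein-coding genes whose symbols begin with Smarc, Arid, Chd, Brd or Baz followed by the family's number or letter, and Bptf. There were 46 such genes among 55573 gene identifiers, chosen by symbol and not by any value. Remodellers use ATP to slide, evict or exchange nucleosomes, in large complexes built around a catalytic subunit of the SWI/SNF, ISWI, CHD or a related family, and bromodomain proteins bind acetylated lysines, mostly on histone tails. RUNX1, the transcription factor behind the emergence of blood from embryonic endothelium, is known to work with SWI/SNF complexes and with CHD7. The catalytic SWI/SNF subunit BRG1 (Smarca4) is known to be needed for blood and vessel formation in the mouse embryo.

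The libraries were RNA immunoprecipitations (RIP-seq), in which RNA held on beads by an antibody is sequenced. They were made from CD31-positive cells, sorted by flow cytometry from the caudal part of wild-type C57BL/6 embryos at embryonic day 10.0. An antibody against Runx1 was used in 2 libraries and IgG, the background control, in 2. All 4 libraries share strain, age, tissue and sort, and the number of embryos behind a library is not given in the sources used here. Separate sorts are not stated for the replicates either, so the spread that enters the p-values may be technical. The design asks which RNAs the Runx1 antibody recovers beyond the IgG background.

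Gene counts ranged from 1675488 to 3843318 per library, and 3 counts corresponded to between 0.781 and 1.79 CPM (counts per 1e6 gene counts). All 8 endothelial markers, Pecam1 and Cdh5 among them, had counts in all 4 libraries. Summed endothelial levels were 1524 and 1281 CPM in the Runx1 libraries against 1570 and 1461 CPM in the IgG libraries. Summed levels of the 8 erythroid markers were 853 and 851 against 483 and 450 CPM, and 7 of the 8 had counts in all libraries. Of 7 macrophage markers 3 had counts in all libraries, and the sums over all 7 were 85.9 and 203 against 50.2 and 67.3 CPM. Single macrophage markers went in both directions, and the sum of Runx1 replicate 2 rested mostly on a single marker. The 7 mesenchymal markers (938 to 976 against 915 to 986 CPM), the 6 neural markers (546 to 652 against 431 to 456 CPM) and the 4 epithelial markers (149 to 152 against 104 to 148 CPM) were also detected in all libraries. The part of these other cells in the results below was not tested. The Runx1 gene's own RNA stood at 31.6 and 32.9 CPM against 18.2 and 20.1 CPM and did not pass (0.72 ± 0.57 on the log2 scale, edgeR adjusted p = 0.647). Per 1e6 gene counts the Runx1 libraries held 356 and 378 spike-in counts and the IgG libraries 129 and 175. Scaling to the spike-ins moved the median of all tested genes from a log2 fold change of 0.027 to -1.25. Fold changes below are relative to the typical gene unless the spike-in scaling is named. Fewer cells of a type, less RNA per cell and less RNA recovered on the beads cannot be told apart.

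One gene of the 46, the bromodomain gene Brd3, rose with the Runx1 antibody, to 1.704 times its IgG level, and none fell. Of the 46 genes 42 passed the filter on low counts. Of these 1 rose, 0 fell and 41 did not pass in edgeR at a false discovery rate of 0.05, where 0.306% of all 12401 tested genes rose and 0.339% fell. DESeq2 called 2 higher (Brd3 and Smarcc1) and 0 lower, where it called 1.98% of all tested genes higher and 2.77% lower. Unadjusted p-values under 0.05 were found for 4 genes on the higher side (Brd3, Smarcc1, Smarca2 and Brd9) and 1 on the lower side (Arid2), against 6.88% and 7.35% of all tested genes, or 5 of 42 against 14.2%. Both Runx1 libraries lay above both IgG libraries for 16 of the 42 and below them for 4, against 24.1% and 21.3%, or 20 of 42 against 45.4%. Values above 0 were found for 27 of the 42, against 51.5%. Pooled over both directions the separate groups are near the background, while by direction they are split less evenly than over all tested genes, a difference that was not tested.

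These families are abundant, and 28 of the 42 genes had a mean of at least 100 CPM. In that range 1 of 28 rose and 0 fell, where 1.55% of all such genes rose and 1.72% fell. An unadjusted p under 0.05 was found for 3 of the 28 on the higher side, against 12.3%, and for 1 on the lower side, against 22.6%, or 4 against 34.9%. Both Runx1 libraries lay above both IgG libraries for 12 of the 28, against 23.4%, and below them for 2, against 38.1%, or 14 against 61.5%. Values above 0 were found for 17 of the 28, against 39.4%. The median log2 fold change was 0.16 over the 42 genes and 0.15 over the 28, beside 0.027 over all tested genes and -0.14 over those of at least 100 CPM. Without IgG replicate 1 the median of the families was 0.081, beside 0.089 over all genes of that fit. The excess over all genes was thus not seen without that library. Medians of the levels within each library went the other way. On a scale of log2(CPM + 1), the family median lay 2.38 and 2.38 above the all-gene median in the Runx1 libraries. In the IgG libraries it lay 2.59 and 2.50 above, so that the direction of the excess depends on the measure.

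**Figure D1:**
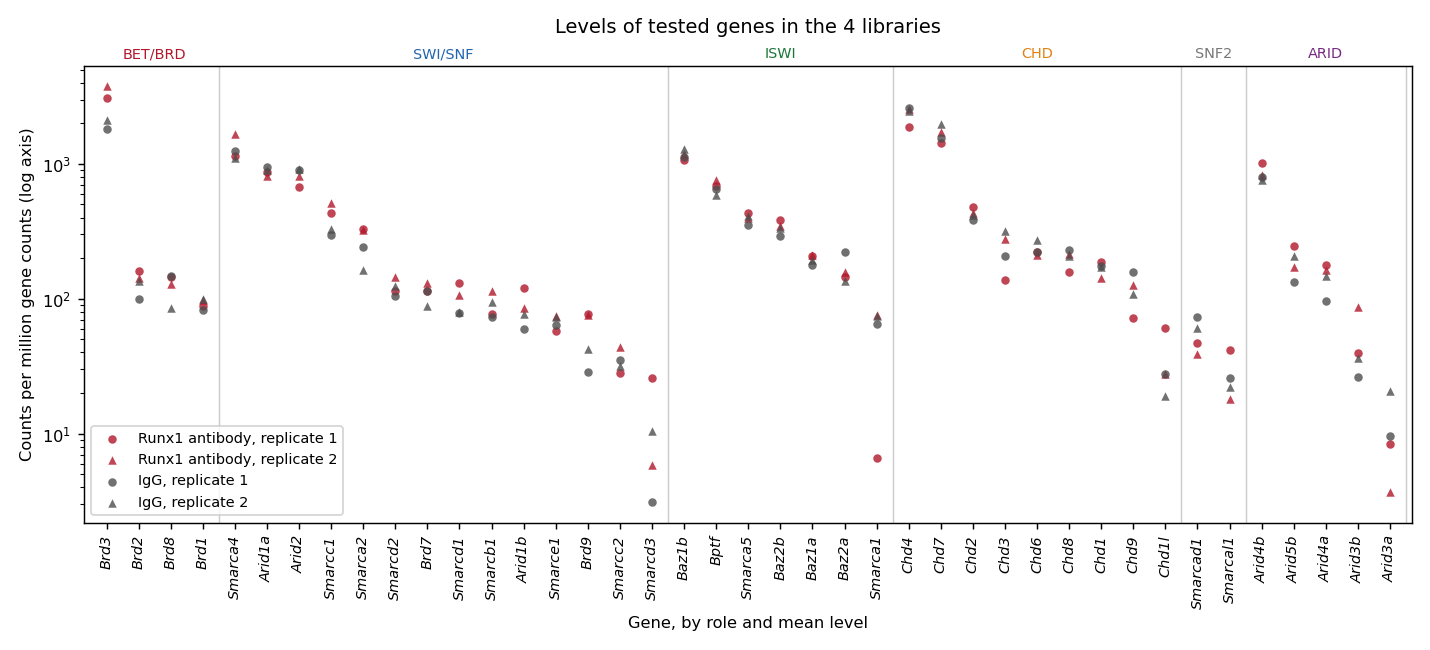
Level of 41 of the 42 tested genes in each library, in CPM on a log axis, grouped by role and ordered by mean level. Each point is 1 library, red for the Runx1 antibody and grey for IgG. Both red points of Brd3 lie above both grey points, and 1 red point of Smarca1 lies far below its other 3.

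Taken as a sum, transcripts of the 46 genes made up 1.74% and 1.97% of all gene counts in the Runx1 libraries, beside 1.64% and 1.71% in the IgG libraries. The groups did not overlap, and the exact permutation test (two-sided, n = 2 and 2) gave p = 0.333, the smallest that 6 arrangements allow. Without Brd3 the sums were 14276 and 15946 CPM against 14530 and 15020 CPM, and the groups overlapped.

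Brd3 encodes a reader of acetylated histones of the BET family, which is also known to bind the acetylated blood transcription factor GATA1. The gene lies on the minus strand of chr2:27445579-27507662 in mm10, the build of all coordinates given here. Its RNA stood at 3086 and 3755 CPM in the Runx1 libraries and at 1827 and 2113 CPM in the IgG libraries. The lower Runx1 library exceeded the higher IgG library, so the groups did not overlap. The means were 3420 ± 473 against 1970 ± 202 CPM (SD, n = 2 each), a log2 difference of 0.77 ± 0.12 (SE) with an edgeR adjusted p of 0.0389. Corrected for the length and GC content of transcripts, the difference was 0.86 ± 0.12 (edgeR adjusted p = 0.0226). Under the spike-in scaling the direction turned, to -0.50 ± 0.27 (edgeR adjusted p = 0.169), which is 0.76 above the median gene of that scaling. Exons of the microRNA gene Mir7578 overlap Brd3 on the same strand, and no other gene carried a near-identical stretch of its transcript.

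The other bromodomain readers did not pass. Brd2, another BET gene, stood at 161 and 143 CPM against 99.1 and 136 CPM, so that its groups did not overlap either (log2 fold change 0.34 ± 0.28, edgeR adjusted p = 0.657). Brd8, a subunit of the TIP60 acetyltransferase complex, stood at 0.20 ± 0.32 and Brd1, a scaffold of other acetyltransferase complexes, at 0.0072 ± 0.31. All 5 genes of this role had values above 0, and 1 of the 5 passed. Per kilobase of transcript, Brd3 stood at 631 CPM per kb with the Runx1 antibody and 363 with IgG, against 32.7 and 25.3 for Brd2.

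Ratios between related genes within a library need no scaling between libraries, and 17 pairs, chosen after the values were seen, were compared by an exact permutation test that cannot give a two-sided p below 0.333 (adjusted over the 17 pairs, 0.809 at the lowest). The Brd3 count was 19.2 and 26.2 times that of Brd2 in the Runx1 libraries and 18.4 and 15.5 times in the IgG libraries. The groups did not overlap (exact permutation p = 0.333), though the nearest libraries were close together.

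**Figure D2:**
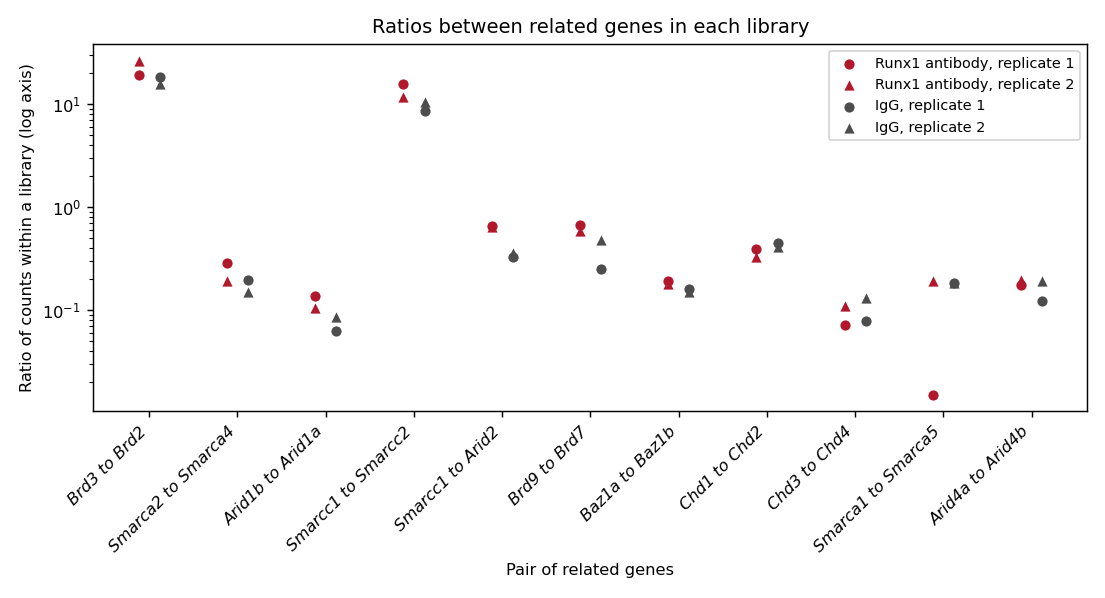
Ratio of counts between related genes within each library, on a log axis, with red points for the Runx1 antibody and grey points for IgG. Brd3 to Brd2, Arid1b to Arid1a and Smarcc1 to Arid2 are higher in both Runx1 libraries than in both IgG libraries. The direction of Smarcc1 to Arid2 was fixed by the choice of the pair. Smarcc1 to Smarcc2, Brd9 to Brd7 and Baz1a to Baz1b are also higher, and Chd1 to Chd2 is lower. Each of these separations has an exact permutation p of 0.333, and Chd3 to Chd4 overlaps between the groups.

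SWI/SNF complexes come as canonical BAF with Arid1a or Arid1b, as PBAF with Arid2 and Brd7, and as a non-canonical form with Brd9. All 14 genes of this role were tested, none passed, and 11 had log2 fold changes above 0 (median 0.24, range -0.33 to 1.18). The core subunit gene Smarcc1 stood at 434 and 516 CPM against 298 and 332 CPM. Its libraries did not overlap, and the gene did not pass in edgeR (0.57 ± 0.17, adjusted p = 0.201). With DESeq2 it was called (adjusted p = 0.0479). Smarca2, the BRM ATPase, stood at 329 and 322 CPM against 240 and 165 CPM (0.65 ± 0.23, edgeR adjusted p = 0.246). Brd9 stood at 77.0 and 76.3 CPM against 28.6 and 42.3 CPM, also without overlap. The gene did not pass (1.09 ± 0.41, edgeR adjusted p = 0.286).

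Arid2 was the one gene of the families on the lower side at an unadjusted p under 0.05. It stood at 670 and 810 CPM against 901 and 923 CPM (log2 fold change -0.33 ± 0.14, edgeR adjusted p = 0.332), and with length and GC content corrected for it stood at 0.073 ± 0.15. The other 2 Arid subunits stood on different sides of 0. Arid1a stood at 874 and 819 CPM against 943 and 896 CPM (-0.15 ± 0.12, edgeR adjusted p = 0.652), and Arid1b at 120 and 85.8 CPM against 59.8 and 76.5 CPM (0.56 ± 0.35, edgeR adjusted p = 0.525). The Arid1b count was 0.137 and 0.105 of the Arid1a count in the Runx1 libraries and 0.0634 and 0.0854 in the IgG libraries, which did not overlap (exact permutation p = 0.333).

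Smarca4, the BRG1 ATPase and the most abundant SWI/SNF gene by CPM, stood at 1151 and 1661 CPM against 1236 and 1103 CPM. One Runx1 library lay between the IgG libraries and the other above both (0.24 ± 0.17, edgeR adjusted p = 0.604). Without Runx1 replicate 1 the gene was called higher (0.45 ± 0.12, edgeR adjusted p = 0.0239, in a fit that called 1.75% of its genes higher), and without Runx1 replicate 2 its value was -0.076. The Smarca2 to Smarca4 ratio overlapped between the groups (0.286 and 0.194 against 0.194 and 0.149). The Smarcc1 count was 0.649 and 0.637 of the Arid2 count in the Runx1 libraries and 0.331 and 0.359 in the IgG libraries, a pair formed from the 2 genes that lay on opposite sides of 0, so that the direction was fixed by the choice. Smarcb1, Smarce1, Smarcd1, Smarcd2, Smarcd3, Smarcc2 and Brd7, the remaining subunits, ranged from -0.072 (Smarce1) to 1.18 ± 1.03 (Smarcd3, at 3.12 to 25.7 CPM), with edgeR adjusted p from 0.470 (Smarcd1) to 0.975 (Smarcc2).

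**Figure D3:**
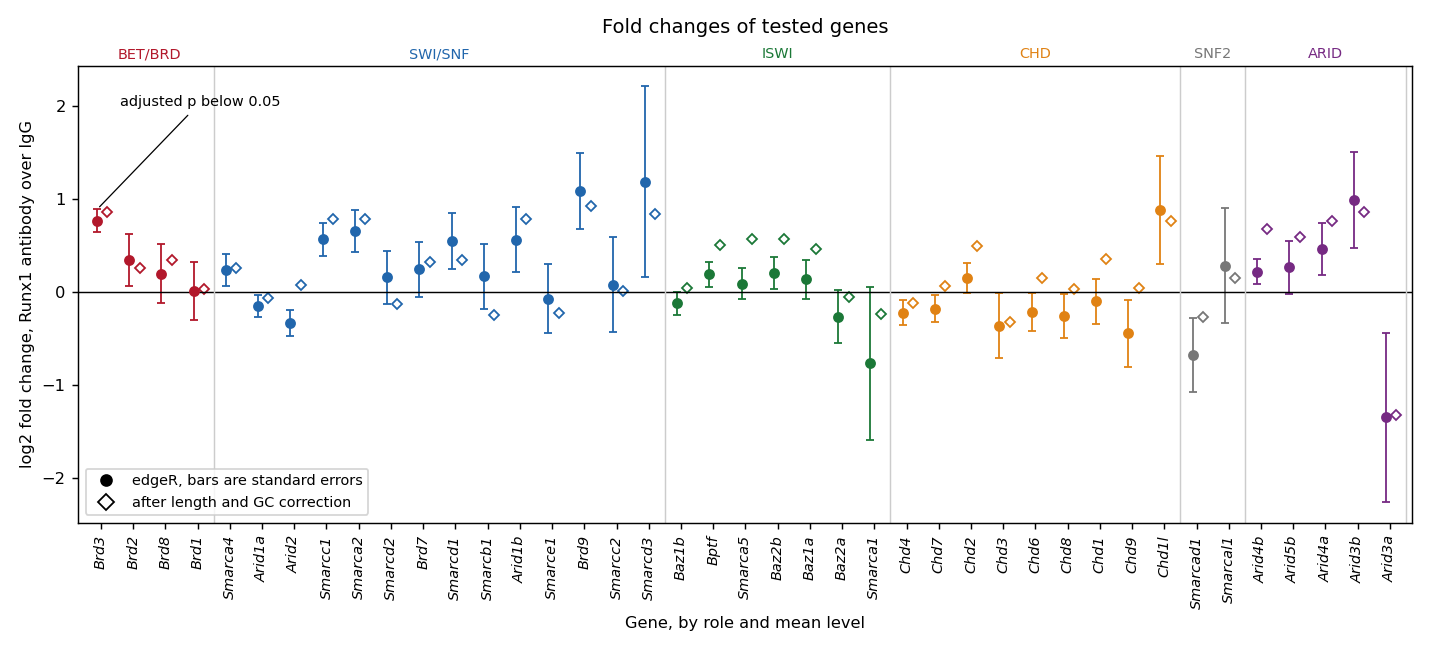
Log2 fold change of 41 of the 42 tested genes, Runx1 antibody over IgG, by role. Filled points are edgeR values with bars of 1 standard error, and open diamonds are the values after the length and GC correction. Brd3 is the one gene with an adjusted p below 0.05, and 7 of the 9 CHD genes lie below 0 before the correction. The CHD genes have a median length of 8509 bases, and of all tested genes of 8 kb or more 24.1% lie above 0.

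ISWI complexes space nucleosomes and pair an ATPase, Smarca5 or Smarca1, with a large partner of the Baz family or Bptf. None of the 7 genes passed, and their median log2 fold change was 0.089. Baz1b, the WSTF subunit, stood at 1070 and 1177 CPM against 1117 and 1279 CPM (-0.12 ± 0.12, edgeR adjusted p = 0.737). Bptf, the nucleosome-binding subunit of the NURF complex, stood at 687 and 754 CPM against 649 and 591 CPM, with groups that did not overlap (0.19 ± 0.14, edgeR adjusted p = 0.618). Smarca5 (0.089 ± 0.17), Baz1a (0.13 ± 0.21) and Baz2b (0.20 ± 0.17) lay above 0 and Baz2a (-0.26 ± 0.29), of the rDNA-silencing complex NoRC, below.

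Smarca1 was singled out after its values were seen, because the ratio between its Runx1 libraries, 11.6, was the largest among the 42 genes (the next was 4.40 for Smarcd3). It had 11 counts in Runx1 replicate 1 and 144 in replicate 2, or 6.57 and 76.3 CPM. The IgG libraries stood at 65.3 and 74.5 CPM, close to replicate 2. Its log2 fold change was -0.77 ± 0.82 (edgeR adjusted p = 0.754), and it lies on chrX:47809368-47892974. Without Runx1 replicate 2 its value was -3.46, which rests on the 11 counts of Runx1 replicate 1. Without Runx1 replicate 1 its value was 0.073. The Smarca1 count was 0.0152 of the Smarca5 count in Runx1 replicate 1 and between 0.182 and 0.193 of it in the other 3 libraries.

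Most CHD remodellers carry paired chromodomains, and Chd3, Chd4 and Chd5 are alternative ATPases of the NuRD corepressor complex. Of the 10 genes 9 were tested, none passed, and 7 of the 9 had log2 fold changes below 0 (median -0.22). The median transcript length of the 9 was 8509 bases. Of all tested genes 41.5% lay above 0 at 4 to 8 kb (median -0.14), and 24.1% at 8 kb or more (median -0.39). Chd4 stood at 1893 and 2541 CPM against 2612 and 2462 CPM, with overlapping groups (-0.22 ± 0.14, edgeR adjusted p = 0.525). Without Runx1 replicate 2 it was called lower (-0.47 ± 0.094, edgeR adjusted p = 0.00331, in a fit that called 1.55% of its genes lower). Chd7, whose protein is known to bind RUNX1, stood at 1431 and 1734 CPM against 1549 and 1966 CPM. Those groups overlapped as well (-0.18 ± 0.14, edgeR adjusted p = 0.657). The genes nearest to Chd7 in sequence, Chd6, Chd8 and Chd9, stood at -0.22 ± 0.21, -0.26 ± 0.24 and -0.44 ± 0.36. Their counts relative to Chd7 overlapped between the groups in all 3 pairs. Chd3 stood at -0.36 ± 0.35 and Chd1 at -0.10 ± 0.24. Above 0 were Chd2 (0.15 ± 0.16) and Chd1l (0.88 ± 0.58), a remodeller that responds to poly(ADP-ribose), with 18.9 to 60.9 CPM. After the length and GC correction the CHD median was 0.069.

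Of the related ATPases outside these complexes, Smarcad1, which acts on chromatin behind replication forks, stood at 47.2 and 38.7 CPM against 73.4 and 60.8 CPM, without overlap (-0.68 ± 0.40, edgeR adjusted p = 0.509). Smarcal1, which rewinds DNA at stalled forks, stood at 41.8 and 18.02 CPM against 25.8 and 22.2 CPM, with overlap (0.28 ± 0.62, edgeR adjusted p = 0.901). Some ARID proteins outside SWI/SNF bind AT-rich DNA. Arid4b, a subunit of the SIN3 corepressor complex, stood at 1018 and 832 CPM against 795 and 764 CPM (0.22 ± 0.14, edgeR adjusted p = 0.533). Corrected for length and GC content, Arid4b stood at 0.68 ± 0.13 (edgeR adjusted p = 0.0762). Arid5b stood at 246 and 173 CPM against 134 and 208 CPM (0.27 ± 0.29, edgeR adjusted p = 0.758). The relatives Arid4a (0.46 ± 0.28), Arid3b (0.99 ± 0.52) and Arid3a (-1.35 ± 0.91, at 3.71 to 20.5 CPM) did not pass either.

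The 4 genes that failed the filter had few counts. Arid3c had 0 counts in all 4 libraries, where a count of 0 allows up to 1.79, 1.59, 0.781 and 1.21 CPM. Chd5, the neural NuRD ATPase, had 3 counts in IgG replicate 1 and 0 elsewhere. Brd3os, which matched the rule only through its name and lies beside Brd3 on the opposite strand, had 10 counts in IgG replicate 1 and 0 elsewhere. For Arid5a the Runx1 libraries held 3 and 8 counts and the IgG libraries 1 and 18.

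Fold changes within the families went with transcript length. Of the 9 tested genes with a transcript under 4 kb, 8 lay above 0 (median 0.28), as did 16 of 23 between 4 and 8 kb (median 0.20) and 3 of 10 at 8 kb or more (median -0.20). All tested genes had medians of 0.18, -0.14 and -0.39 in these classes, so that each class of the families lay above its background median. Spearman's rho between fold change and length was -0.45 over the 42 genes and -0.26 over 12399 tested genes with a length, given as descriptions, since genes of a library share its depth and amplification. After the length and GC correction the medians were 0.29 for the 42 genes and 0.046 for all tested genes. In that fit Brd3 was again the one gene that passed, where 0.234% of all tested genes rose and 0.0484% fell.

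**Figure D4:**
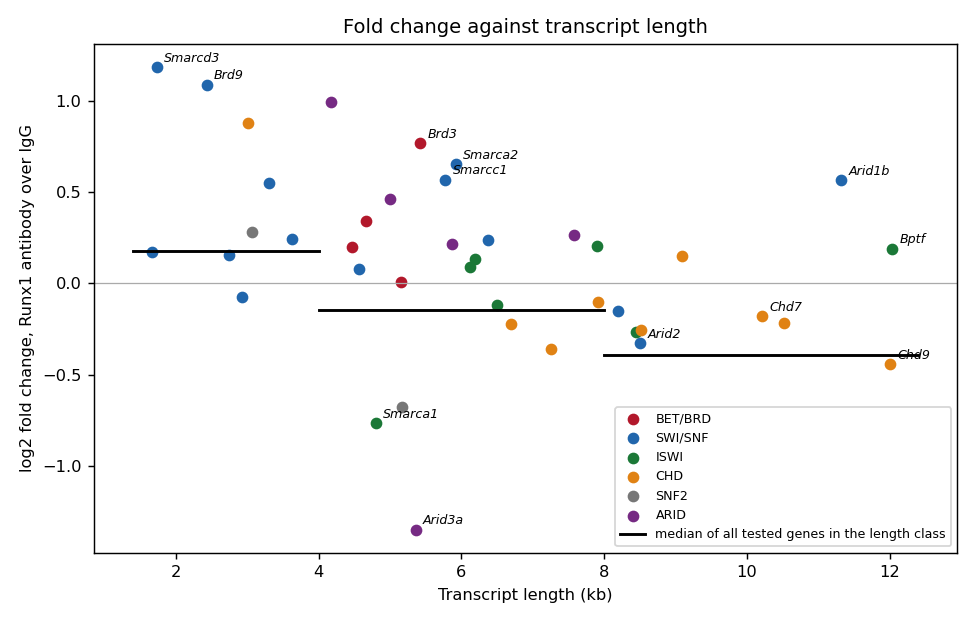
Log2 fold change, Runx1 antibody over IgG, against the length of the longest protein-coding transcript in kb, for 41 of the 42 tested genes coloured by role. Black lines are the medians of all tested genes under 4 kb (0.18), from 4 to 8 kb (-0.14) and from 8 kb (-0.39), and Brd3, Smarcc1, Smarca2, Arid1b and Bptf lie above the line of their class.

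Under the spike-in scaling 24 of the 42 genes were called lower and 0 higher, where 31.6% of all tested genes were called lower. Among genes with a mean of at least 100 CPM the counts were 20 of 28, against a background of 76.7%. The median of the 42 genes was -1.11, or 0.14 above that of all tested genes, beside 0.14 without the spike-ins. All 7 ISWI genes and 8 of the 9 CHD genes were among the 24, with 5 of 14 SWI/SNF genes. The rest were 2 of 5 bromodomain readers, 1 of 5 ARID genes and 1 of 2 other SNF2 ATPases. Median fold changes of the ISWI, CHD and SWI/SNF roles in this scaling were -1.17, -1.47 and -1.06. Their median levels were 338, 232 and 105 CPM, and the part of level in these counts was not tested.

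The levels themselves set a few genes apart. By mean CPM over the 4 libraries Brd3 was number 10, Chd4 number 12, Chd7 number 17 and Smarca4 number 43 of the 12401 tested genes. Divided by transcript length they were number 45, 81, 247 and 176. The A-richest stretch of 30 bases in the transcript is described here because the 3 most abundant genes of the families hold one with many A bases, a choice made after the values were seen, and its part in the levels was not tested. Brd3 and Chd7 hold 27 A bases in such a stretch and Chd4 holds 26. Of the 42 genes 9 had 24 or more, all in the 3′ UTR, or 21.4%, against 10.3% of all tested genes, and these 9 had a median of 97.1 CPM per kb. The 9 include the 3 genes that led to the choice. The number of A bases also went with transcript length (Spearman's rho 0.61 over the 42 genes and 0.44 over all tested genes). Median length was 5892.5 bases for the 42 genes against 3205 for all tested genes, and its part in this share was not tested. Without the 3 genes that led to the choice the other 6 had a median of 39.8, beside 29.1 for the 22 genes with 20 to 23 and 23.1 for the 11 genes below 20. Over all tested genes the same classes had medians of 10.1, 9.35 and 10.5 CPM per kb. Spearman's rho of A bases with the CPM per kb was 0.30 over the 42 genes, those 3 included, and -0.061 over 12396 genes with a sequence, again as descriptions. Arid3a, Arid1b and Chd8 hold 26, 27 and 27 A bases at 1.97, 7.55 and 23.9 CPM per kb, so that such a stretch did not go with a high level in each case.

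Windows in coding sequence are less rich in A than those of the 9 genes above, and 4 are printed so that their base composition can be seen. They are those of the 3 genes with the highest mean CPM among genes whose A-richest window is coding, and of Smarcd2, which has the fewest A bases, read from the GENCODE M21 transcripts in the sense direction with every A in capitals.
Smarca4: cAAggAgAAgAAgAAgAAAAAgAAAAAgAA
Baz1b: AcAAAgAAAAtAAAgAcAAAgAggAcAAgA
Arid4b: AAAAtAAAgAAtAAActAgAcAAAgAAAAA
Smarcd2: AtcAAgAAgcctctgAcgcAAAAgcgAAAA
The Smarca4 window, with 21 A bases, lies in exon 10 at chr9:21642562-21642591 on the plus strand, and the Baz1b window, with 20, in exon 7 at chr5:135217146-135217175 on the plus strand. The Arid4b window (22, chr13:14181296-14184327, plus strand) runs from exon 18 to exon 19, and the Smarcd2 window (14, chr11:106266681-106266908, minus strand) from exon 4 to exon 5, so that these spans include an intron. The mean levels of these genes were 202, 179, 145 and 44.3 CPM per kb in the order of the lines.

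**Figure D5:**
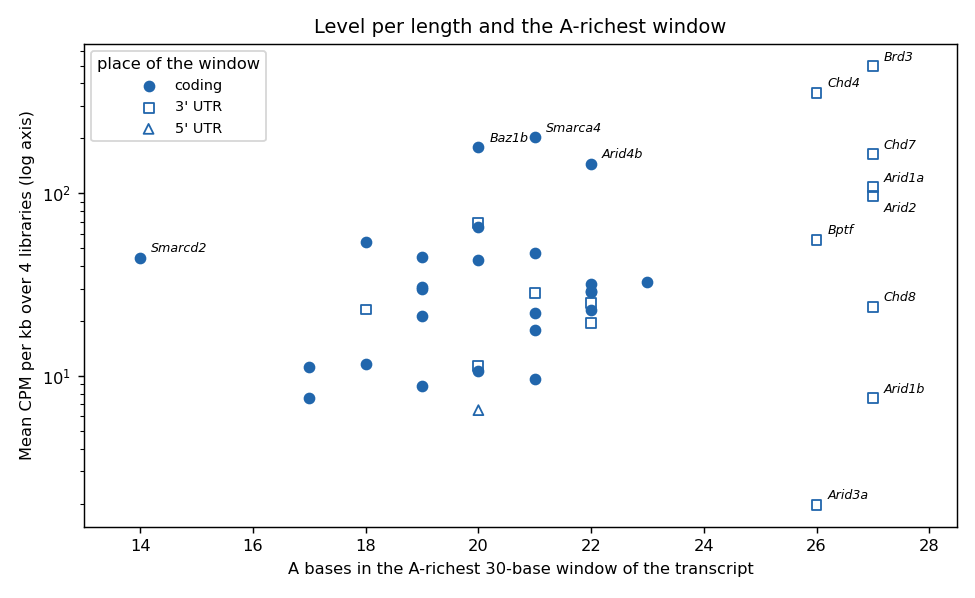
Mean CPM per kb over the 4 libraries, on a log axis, against the number of A bases in the A-richest 30-base window, for 41 of the 42 tested genes. Filled circles mark windows in coding sequence, squares the 3′ UTR and the triangle the 5′ UTR. Brd3, Chd4 and Chd7 stand high at 26 or 27 A bases, and Arid3a and Arid1b stand low there.

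The other genes of these complexes, from lists written by complex, gave no call in edgeR. Of 93 genes 88 were tested, and 0 rose and 0 fell, where 0.306% of all tested genes rose and 0.339% fell. An unadjusted p under 0.05 was found for 8 of the 88 on the higher and 11 on the lower side, against 6.88% and 7.35% of all tested genes. DESeq2 called 5 higher and 8 lower, against 1.98% and 2.77%. Their median log2 fold change was -0.040. Of 12 other NuRD subunit genes 10 lay above 0 (median 0.33, or 0.23 after the length and GC correction), among them the methyl-binding subunit Mbd3 (312 and 246 against 175 and 136 CPM, 0.81 ± 0.23, edgeR adjusted p = 0.178) and the histone chaperone Rbbp7 (0.54 ± 0.25). After that correction Mbd3 stood at 0.48 ± 0.25 and Rbbp7 at 0.55 ± 0.26. Of 13 other SNF2 ATPases 12 lay below 0 (median -0.63, or -0.20 after the length and GC correction), with Zranb3 (-1.46 ± 0.42) and Rad54l2 (-1.26 ± 0.40) at the smallest p. The 21 tested genes of other bromodomain proteins had a median of -0.44, or 0.019 after that correction. In that list Brwd1 stood at 509 and 444 against 779 and 815 CPM (-0.77 ± 0.14, edgeR adjusted p = 0.0571). Cecr2, an ISWI partner with a bromodomain, stood at 58.5 and 62.0 against 133 and 144 CPM (-1.23 ± 0.30, edgeR adjusted p = 0.124).

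Other SWI/SNF subunits had a median of -0.10 over 15 genes, with the PBAF subunit Pbrm1 at -0.52 ± 0.14 (edgeR adjusted p = 0.167) and Ss18 at -0.62 ± 0.29. Corrected for length and GC content, Pbrm1 stood at -0.00013 ± 0.14. The 26 tested genes of the INO80, SRCAP and TIP60 complexes had a median of 0.29, or 0.14 after that correction. The INO80 subunit genes Actr8 (91.3 and 49.3 against 13.5 and 11.3 CPM, 2.46 ± 0.52, edgeR adjusted p = 0.0871) and Ino80c (15.5 and 43.4 against 1.82 and 0.806 CPM, 4.37 ± 0.94, edgeR adjusted p = 0.0897) had the smallest p of that list. Other ISWI subunit genes, of which 6 were tested, had a median of 0.018, or 0.41 after the length and GC correction.

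Reads of similar or overlapping genes could be shared by the counting, whose strand setting is not given in the sources used here. Near-identical stretches of Smarca5 occur in 6 pseudogenes, of Smarce1 in 3 and of Smarcc1 and Baz1a in 1 each, and Brd8 shares stretches with 5 other genes. Brd2, the denominator of the Brd3 ratio, shares one with H2-DMa, whose exons overlap it on the opposite strand. Arid3b, Smarcd1, Baz2a and Chd2 each share one with 1 other gene, which for Chd2 (1810026B05Rik) overlaps on the same strand. Exons of Arid4b, Smarca2 and Smarcc1 overlap Ggps1, 4931403E22Rik and Dhx30 on the opposite strand. Their values are uncertain to that extent.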

How the data were processed

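RNA held by an antibody against Runx1 or by IgG was measured in 2 libraries each, grouped by sample title. The authors deposited 1 table of raw counts per Ensembl gene and per spike-in, with no normalization. The submitters' processing notes list mm10, Salmon 1.1.0, STAR 2.7.3a and Trimmomatic 0.36 without their roles. The annotation, the strand setting and any rounding of estimated counts are stated nowhere in the sources used here. Antibodies were held on protein A beads and cDNA was sheared before library construction, per the labels' protocols. Amplification without molecular identifiers named in the labels means that floors cover counting error only.

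Of 55573 identifiers, 55480 matched GENCODE M21 and 93 did not. The 92 spike-in rows were left out of library sizes and tests. The gene test was the two-sided quasi-likelihood test of edgeR 4.0.16 (R 4.3.3) on all 4 libraries without a block, after TMM and filterByExpr (minimum count 10, total 15), with Benjamini-Hochberg adjustment over 12401 genes. The biological coefficient of variation was 46.1%. Lengths, GC content and A-rich windows come from the longest protein-coding transcript. The length and GC correction entered the fit as offsets, from a natural spline of 5 degrees of freedom fitted in each library. Near-identical copies are stretches of at least 200 bases at 95% identity, found with blastn 2.17.0.

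The genes named are those passing the threshold, those at an unadjusted p under 0.05, the 2 most abundant of each role and, of the other lists, the 2 with the smallest p, besides Runx1. The remaining genes of the families are given by their values in short, and 1 gene of the families and 1 marker are counted but not reported here. The genes and lists were chosen with earlier results of these data known. Alternatives were DESeq2 1.42.0, limma-voom (limma 3.58.1), other size factors and filters, spike-in scaling, a replicate block, a looser threshold of 0.1 and each library left out.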

Additional observations from a re-analysis of the deposited data

How the results depend on the processing

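Brd3 stayed above 0 under all settings run except the spike-in scaling (-0.50), and its adjusted p passed in all but that fit and the one with a replicate block (log2 fold change 0.76, adjusted p = 0.0616). The labels do not say whether the replicate numbers pair the libraries. Deviations from the group means of Runx1 replicate 1 and IgG replicate 1 correlated at 0.004, which with 2 libraries per group cannot decide it. With the replicate block edgeR called 0 of the 42 genes and, over all genes, 2 higher and 0 lower, where 5 and 1565 had an unadjusted p below 0.05. Of the tested genes of these families, 2 were called higher with DESeq2, 0 higher and 24 lower under the spike-in scaling, and with 1 library left out 1 to 2 higher (2 without Runx1 replicate 1) and 0 to 2 lower (2 without Runx1 replicate 2). Their median log2 fold change, 0.16, was 0.29 after the length and GC correction, 0.11 with no filter, -1.11 under the spike-in scaling and 0.073 to 0.16 with 1 library left out. Its distance from the median of all genes, 0.14, was -0.0082 without IgG replicate 1 and 0.088 to 0.19 without another library. Over all genes, 38 higher and 42 lower, the counts were 246 and 344 with DESeq2, 102 and 120 with limma-voom, 224 and 325 with no filter, 125 and 160 with the strict filter, 106 and 124 at a false discovery rate of 0.1, and 19 and 3914 under the spike-in scaling. There were 6 lower after the length and GC correction, and 94 to 248 higher and 80 to 352 lower with 1 library left out.

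Under the spike-in scaling 26 of the 27 genes of the families above 0 turned below 0, and of the genes named from the other lists Mbd3 (-0.48) and Rbbp7 (-0.75) did. Among them, of the genes named by the rule, were Arid4b (-1.06), Arid5b (-0.96), Bptf (-1.10), Brd9 (-0.15), Smarca2 (-0.66), Smarca4 (-1.06), Smarcal1 (-0.99) and Smarcc1 (-0.70). That scaling moved the median of all tested genes to -1.25. After the length and GC correction 7 of 15 genes turned above 0, without a call: Arid2 (0.073), Baz1b (0.048), Chd7 (0.069), Chd1, Chd6, Chd8 and Chd9, and Smarcb1 and Smarcd2 turned below 0. With 1 library left out Arid5b ranged from -0.036 (without Runx1 replicate 1; -0.033 without IgG replicate 1) to 0.60, Smarca1 from -3.46 to 0.073 (without Runx1 replicate 1), Smarca4 from -0.076 (without Runx1 replicate 2) to 0.45 and Smarcal1 from -0.47 (without Runx1 replicate 1) to 0.75. A fit that leaves a group with 1 library assumes that it varies like the other group. The causes were not tested. The 14 tested genes of the families under 100 CPM had standard errors of 0.30 or more, so that changes of that size were not detectable in them. Larger log2 fold changes among them, such as 1.09 (Brd9) and 1.18 (Smarcd3), did not pass either. Some genes above 100 CPM had standard errors as large, such as Chd3 (0.35) and Chd9 (0.36).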
